A study of Mus musculus with 16 samples.

Results

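The forkhead genes encode transcription factors that share a winged-helix DNA-binding domain. The 37 members described here were taken by name, Foxa1 to Foxs1, from 21631 protein-coding genes (those of chromosomes 1 to 19 and of X), without a threshold on their cover. H3K27me3, the trimethylated form of lysine 27 of histone H3, was mapped over them by chromatin immunoprecipitation and sequencing (ChIP-seq). The cells were B cells from the spleens of C57BL/6 mice, 6 to 8 weeks old, isolated with CD43 microbeads and cultured for 48 hours with 2 ng/mL BAFF and 2 ng/mL IL-4. Donor animals were either wild type (WT) or Ifih1/Rigi/cGAS triple mutants, called mutant below. Cells of each genotype received DMSO, the solvent, or 1 µM GSK343, an inhibitor of the methyltransferase EZH2. For each of these 4 groups there are 2 ChIP and 2 input samples but only 1 list of broad peaks. The lists read as called on pooled replicates, so no spread between replicates can be given, no difference below was tested, and read depth is unknown.

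EZH2 is the catalytic subunit of Polycomb repressive complex 2, which places H3K27me3 over genes that are held silent, among them many regulators of embryonic development. Most forkhead factors belong to that kind: they direct the formation of endoderm, neural crest, mesenchyme, sense organs or epithelia. A smaller number, including Foxo1, Foxp1 and Foxo3, work in B cells, where Foxo1 is needed for early development, homing and class switching. The measure used is the covered share, the percentage of a gene body plus 5 kb each side that lies inside a peak. Where 2 shares are given for a genotype, the first is from DMSO and the second from GSK343. In a bulk culture, a weaker mark in each cell and a loss in part of the cells cannot be told apart.

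The peak lists differ in extent. On chromosomes 1 to 19 and X the peaks cover 84.2 Mb (DMSO) and 21.0 Mb (GSK343) in WT, and 134 Mb and 16.9 Mb in mutant cells. Values with an equal number of peaks from each list are given for some of the calls that they end, not for all. As a check of the cell type, the B cell marker genes Cd79a, Cd79b, Ms4a1, Pax5 and Cd22 had no peak in the 4 lists. Of 6 T cell markers, 5 had a peak in each DMSO list. Of 6 myeloid markers, 3 had one in WT DMSO and 4 in mutant DMSO, against 43.5% and 48.9% of all protein-coding genes. Itgam and Csf1r had no peak in the 4 lists, so the myeloid markers did not separate the cell types. Levels of RNA were not analysed here.

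The family divided by role. A peak lay in the windows of 28 of 37 members in WT DMSO and 28 of 37 in mutant DMSO, against 43.5% and 48.9% of all protein-coding genes. Under GSK343 the counts were 26 in WT and 22 in mutant cells, against 26.3% and 24.4% of all genes. The median covered share over all 37 members was 38.7% and 26.9% in WT and 40.8% and 20.4% in mutant cells, while the median over all protein-coding genes was 0% in each list. A covered share of at least 90% was found for 13 members in WT DMSO and 14 in mutant DMSO, where it was found for 1.2% and 2.03% of all genes. Under GSK343 it was found for 3 members in WT and 0 in mutant cells, against 0.148% and 0.0555% of all genes. The 26 members with a tissue-restricted role had a median share of 89.0% in WT DMSO, and the 11 members that are broadly expressed or used in lymphocytes had a median of 0%. The classes also differ in gene length, with a median of 3.24 kb against 60.5 kb, and a peak of a given width covers less of a long window.

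**Figure D1:**
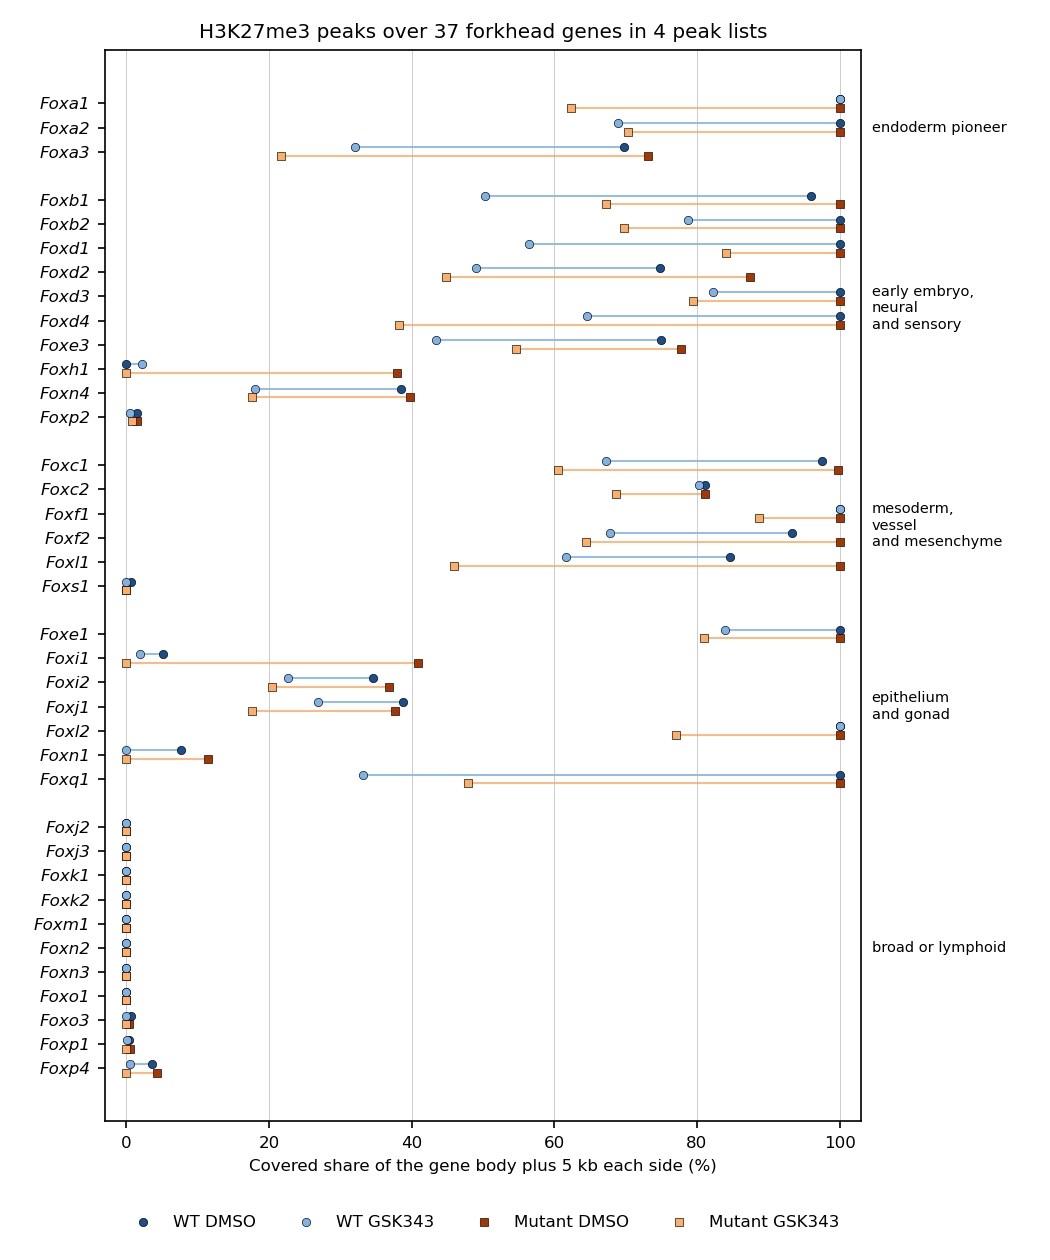
Each row is a forkhead gene, grouped by role, and the horizontal axis gives the percentage of its gene body plus 5 kb each side inside an H3K27me3 peak. Circles are WT and squares mutant lists, dark for DMSO and light for GSK343, 1 pooled list each with no replicate error, and lines join the treatments of a genotype. The 11 broad or lymphoid members lie at or below 4.28% in each list, and 10 members lie at 100% in both DMSO lists.

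The Foxa factors, pioneer factors that open chromatin in liver, lung and pancreas, had the highest median share of the 5 role groups under DMSO. Foxa1 (chromosome 12, 57540628 to 57548029) had 100% and 100% in WT and 100% and 62.3% in mutant cells. Foxa2 (chromosome 2, 148042877 to 148046969), which specifies node, floor plate and endoderm, had 100% and 69.0% in WT and 100% and 70.3% in mutant cells. The mutant therefore lay lower under GSK343 at Foxa1 and nearly level with WT at Foxa2. Foxa3 (chromosome 7, 19013283 to 19023539), a factor of liver and gut, had 69.8% and 32.1% in WT and 73.1% and 21.7% in mutant cells. Its GSK343 shares were the lowest of the Foxa genes in both genotypes.

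Of the 10 members with roles in the early embryo, nervous system and sense organs, 9 had a peak in WT DMSO and 10 in mutant DMSO. Foxb2, Foxd1, Foxd3 and Foxd4 were covered in full in both DMSO lists. Foxd3 (chromosome 4, 99656299 to 99658671), a regulator of pluripotent cells and neural crest, had 82.2% in WT GSK343 and 79.4% in mutant GSK343. Foxb2 had 78.8% and 69.7% in these lists. Foxd1 (chromosome 13, 98354245 to 98356705), a marker of the stroma of the developing kidney, had 56.5% in WT GSK343 and 84.1% in mutant GSK343. Foxd4 (chromosome 19, 24898943 to 24901016) went the other way between genotypes, with 64.6% in WT GSK343 and 38.2% in mutant GSK343. Foxd1 and Foxd4 therefore differed between the genotypes in opposite directions. For Foxb1, a gene of the developing hypothalamus, the shares were 95.9% and 50.2% in WT and 100% and 67.2% in mutant cells. Foxd2, Foxe3 (a lens factor) and Foxn4 (a factor of retina and spinal cord) were covered in part. Foxd2 had 74.8% and 49.0% in WT and 87.4% and 44.9% in mutant cells. Foxe3 had 75.0% and 43.4% in WT and 77.8% and 54.6% in mutant cells. The mutant GSK343 share was thus the lower of the genotypes at Foxd2 and the higher at Foxe3. Foxn4 had 38.5% and 18.1% in WT and 39.8% and 17.6% in mutant cells, and its single WT DMSO peak of 12.2 kb lay over the end of the gene that holds its start.

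Foxp2 and Foxh1 stood apart from that group. Foxp2 (chromosome 6, 14901349 to 15441977), known for its part in vocal learning circuits, has a body of 541 kb and had 1.44% and 0.462% in WT and 1.48% and 0.818% in mutant cells. The WT DMSO peak there was 7.95 kb wide, had a fold of 4.41 over background and lay across the lower-coordinate end of the gene. In WT GSK343, 2 peaks of 2.06 kb and 0.482 kb lay at the same end, and in mutant GSK343 2 peaks of 3.97 kb and 0.539 kb. Foxh1 (chromosome 15, 76667829 to 76671614), the partner of Smad proteins in Nodal signalling, had 0% and 2.12% in WT and 37.9% and 0% in mutant cells. The mutant DMSO peak was 5.22 kb wide with a fold of 2.43. The WT GSK343 share came from a peak of 0.292 kb outside the gene body.

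Members with roles in mesoderm, vessels and mesenchyme were covered over most of their windows under DMSO, apart from Foxs1. Foxf1 (chromosome 8, 121084386 to 121088154), a target of Hedgehog signalling in lung and gut mesenchyme, had 100% and 100% in WT and 100% and 88.7% in mutant cells. The last value was the highest of the 37 members in that list. Foxc2 (chromosome 8, 121116171 to 121118895), a regulator of lymphatic vessels and valves, had 81.2% and 80.2% in WT and 81.1% and 68.6% in mutant cells. Its WT shares under DMSO and GSK343 differed by less than those of any other member with a partial DMSO share of at least 10%. Foxl1 (chromosome 8, 121127685 to 121130644), expressed in the mesenchyme beneath the gut epithelium, had 84.6% and 61.7% in WT and 100% and 46.0% in mutant cells. At Foxl1 the mutant lay above WT under DMSO and below it under GSK343. Foxc1, needed for eye, bone and vessel development, had 97.5% and 67.3% in WT and 99.7% and 60.5% in mutant cells. Foxf2, a gene of palate and brain pericytes, had 93.4% and 67.8% in WT and 100% and 64.4% in mutant cells. Foxs1, a pericyte gene, had a peak in WT DMSO alone, 1035 bp wide and 4924 bp outside the gene body, so its share was 0.681%.

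The 7 members with roles in epithelia and gonads ranged from full cover to little cover in both DMSO lists. Foxe1 (chromosome 4, 46343644 to 46345774), a thyroid factor, had 100% and 84.0% in WT and 100% and 80.9% in mutant cells. Foxl2 (chromosome 9, 98955607 to 98958126), which maintains ovarian identity, had 100% and 100% in WT and 100% and 77.1% in mutant cells. Foxq1 (chromosome 13, 31558170 to 31560976), a gene of hair and mucosal epithelium, had 100% and 33.1% in WT and 100% and 47.9% in mutant cells. Foxq1 thus had the lowest WT GSK343 share among the members covered in full under DMSO. Foxi2 had 34.6% and 22.7% in WT and 36.9% and 20.4% in mutant cells. Foxj1, the regulator of motile cilia, had 38.7% and 26.9% in WT and 37.7% and 17.7% in mutant cells. Both were covered over only part of the window in each list. Foxi1 (chromosome 11, 34204341 to 34208089), a factor of the inner ear and of kidney intercalated cells, had 5.19% and 1.93% in WT and 40.8% and 0% in mutant cells. Foxn1 (chromosome 11, 78357577 to 78386783), the regulator of thymic epithelium, had 7.64% and 0% in WT and 11.4% and 0% in mutant cells. Foxi1 and Foxn1 thus had no peak in the mutant once GSK343 was present.

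Of the 11 broad or lymphoid members, 8 had no peak in the 4 lists, whereas 49.6% of all protein-coding genes had none. These 8 were Foxj2, Foxj3, Foxk1, Foxk2, Foxm1, Foxn2, Foxn3 and Foxo1. Foxm1 drives genes of the G2 and M phases in dividing cells, and Foxk1 and Foxk2 act in metabolism and autophagy. The gene of most interest to B cells, Foxo1 (chromosome 3, 52268337 to 52350109), was at 0% in all 4 lists. A gene without a peak may still carry H3K27me3 below the peak threshold. Foxo3 (chromosome 10, 42181845 to 42276695), a factor of quiescence and stress resistance, had peaks only under DMSO, of 0.69 kb in WT and 0.363 kb in mutant cells. Both lay outside its body, and the nearer edge of the WT peak was 2976 bp upstream of its start. Foxp4, a partner of Foxp1 and Foxp2 in lung development, had 3.65% and 0.548% in WT and 4.28% and 0% in mutant cells, and its start was outside the peaks in each list.

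Foxp1 (chromosome 6, 98925342 to 99522746) represents a mixed case. Foxp1 acts in early B cell development and in the quiescence of mature lymphocytes, and its transcripts begin at several promoters. Its covered share was 0.365% and 0.0496% in WT and 0.488% and 0% in mutant cells. The WT DMSO peak was 2.22 kb wide (99519625 to 99521840) with a fold of 2.87, and it lay over the first of the 3 starts that the promoter table gives, at 99520993. The bases within 1 kb of this first start were covered by 92.4% and 15.0% in WT and by 100% and 0% in mutant cells. The same bases around the second start (99266515) and the third (99028298) were covered by 0% in each list. Under GSK343 the first start lay outside the peaks in both genotypes, and the nearer edge of the single WT GSK343 peak, 301 bp wide, was 414 bp from it. None of the Foxp1 peaks reached a fold of 3.

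The 250 bases before the 3 Foxp1 starts are shown because their peaks differ within 1 gene. Foxo1 is shown as a member without a peak, and Foxl2 and Foxd3 as members whose start lay in a peak in the 4 lists. The sequences are from RefSeq on GRCm38.p6, read on the strand of the gene, which is the minus strand for Foxp1 and the plus strand for the others. Capitals mark CG, the dinucleotide that makes up CpG islands and that reads the same on both strands.
Foxp1 start 1, chr6:99520994-99521243: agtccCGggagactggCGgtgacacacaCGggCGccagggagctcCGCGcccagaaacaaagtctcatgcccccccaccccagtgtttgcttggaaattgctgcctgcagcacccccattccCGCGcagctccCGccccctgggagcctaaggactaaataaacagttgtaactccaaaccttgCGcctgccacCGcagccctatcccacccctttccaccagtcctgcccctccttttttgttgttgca
Foxp1 start 2, chr6:99266516-99266765: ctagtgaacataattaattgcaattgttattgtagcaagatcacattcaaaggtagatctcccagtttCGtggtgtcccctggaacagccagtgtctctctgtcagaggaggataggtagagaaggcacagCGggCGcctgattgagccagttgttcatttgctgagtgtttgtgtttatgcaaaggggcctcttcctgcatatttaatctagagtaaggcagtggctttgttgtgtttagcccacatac
Foxp1 start 3, chr6:99028299-99028548: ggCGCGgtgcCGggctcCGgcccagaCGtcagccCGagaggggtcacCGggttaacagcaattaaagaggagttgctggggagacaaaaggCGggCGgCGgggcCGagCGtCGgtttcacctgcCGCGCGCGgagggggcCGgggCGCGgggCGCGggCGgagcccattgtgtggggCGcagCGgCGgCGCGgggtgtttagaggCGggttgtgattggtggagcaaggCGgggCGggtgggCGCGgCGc
Foxo1, chr3:52268087-52268336: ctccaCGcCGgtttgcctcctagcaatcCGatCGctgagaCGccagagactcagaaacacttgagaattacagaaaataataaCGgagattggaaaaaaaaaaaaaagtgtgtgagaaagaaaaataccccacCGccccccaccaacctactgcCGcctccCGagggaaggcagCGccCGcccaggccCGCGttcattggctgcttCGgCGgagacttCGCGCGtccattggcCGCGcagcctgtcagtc
Foxl2, chr9:98955357-98955606: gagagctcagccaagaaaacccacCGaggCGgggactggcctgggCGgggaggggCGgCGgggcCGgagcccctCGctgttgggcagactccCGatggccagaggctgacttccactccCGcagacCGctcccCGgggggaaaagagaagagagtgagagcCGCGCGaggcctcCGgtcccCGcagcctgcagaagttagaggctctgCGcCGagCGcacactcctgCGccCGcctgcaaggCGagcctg
Foxd3, chr4:99656049-99656298: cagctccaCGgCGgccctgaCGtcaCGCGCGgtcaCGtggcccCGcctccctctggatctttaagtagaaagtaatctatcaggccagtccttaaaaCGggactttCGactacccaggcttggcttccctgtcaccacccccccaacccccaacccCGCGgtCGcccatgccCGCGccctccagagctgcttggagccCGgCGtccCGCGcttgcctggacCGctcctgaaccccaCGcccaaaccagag

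These stretches hold 11, 3 and 34 CG at the Foxp1 starts in the order shown, 20 at Foxo1, 22 at Foxl2 and 21 at Foxd3. A CG-rich stretch was thus present both with a peak, at Foxl2 and Foxd3, and without one, at Foxo1 and at the third Foxp1 start. Promoter sequence was found for 24 of the 37 members, as 300 bases around each start, from 250 before it to 50 after. The 14 members whose first start lay in a WT DMSO peak had a median of 18.5 CG and an observed to expected CG ratio of 0.646. In the 10 others the medians were 32 CG and a ratio of 0.819. The highest count, 59 CG, was that of Foxk2, which had no peak. Over all protein-coding genes the medians were 17 CG with the start in a WT DMSO peak and 12 CG outside, and 94.7% of all promoters in the table held at least 1 CG.

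The response of the covered members to EZH2 inhibition was followed where the DMSO share was at least 10%. In WT cells, 3 of 21 members (Foxa3, Foxn4 and Foxq1) had a GSK343 share at least 2 times lower than the DMSO share, against 75.7% of all genes with such a DMSO share. In mutant cells it was 9 of 24 members (Foxa3, Foxd4, Foxh1, Foxi1, Foxj1, Foxl1, Foxn1, Foxn4 and Foxq1), against 90.4% of all genes. Of these 9, Foxh1, Foxi1 and Foxn1 had a DMSO share of at least 10% in the mutant alone, so the 2 counts rest on unlike sets. Over all members with a DMSO peak, whatever its share, no GSK343 peak was listed for 3 of 28 in WT (Foxn1, Foxo3 and Foxs1), against 39.9% of all genes with a DMSO peak. In mutant cells it was 6 of 28 (Foxh1, Foxi1, Foxn1, Foxo3, Foxp1 and Foxp4), against 50.4%. With an equal number of peaks from each list, Foxn1, Foxo3 and Foxs1 were at 0% in WT DMSO. Foxo3 and Foxp4 were then at 0% in mutant DMSO, so these calls also ended. The share of a member's DMSO-covered bases that were also covered under GSK343 had a median of 69.0% in WT cells (range 33.1 to 100%) and 61.5% in mutant cells (range 0 to 88.7%). The medians over all genes were 28.6% and 11.3%. The lowest WT values were 33.1% at Foxq1, 46.0% at Foxa3 and 46.9% at Foxn4, and the lowest mutant values were 0% at Foxh1, Foxi1 and Foxn1. These 3 members had a mutant DMSO share of 0% with an equal number of peaks from each list, and also with only peaks at or above a fold of 3, so that 21 mutant members remained. Of these 21, 6 and 9 were then at least 2 times lower under GSK343. The mutant median over all genes was 22.5% and 21.2% under these settings, and 5.45% with peaks of at least 1 kb. In the same order the mutant members had 64.4%, 60.2% and 58.3%. The WT median over all genes was 41.4%, 42.5% and 28.7%, and the WT members had 69.0% in each. The WT members thus lay less far above all genes under the first 2 settings.

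Most of these members started from near-complete cover, so they were also set beside genes covered by at least 90% under DMSO, a comparison chosen after seeing the data. In WT cells the 13 members of that kind had a median of 72.6% of their DMSO-covered bases covered under GSK343, close to the 68.0% over all 259 such genes. In mutant cells the 14 members had 68.5% and all 439 such genes 42.8%. The share was at least 2 times lower under GSK343 in 1 of the 13 WT members (Foxq1) against 19.7% of such genes, and in 3 of the 14 mutant members (Foxd4, Foxl1 and Foxq1) against 59% of such genes.

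**Figure D2:**
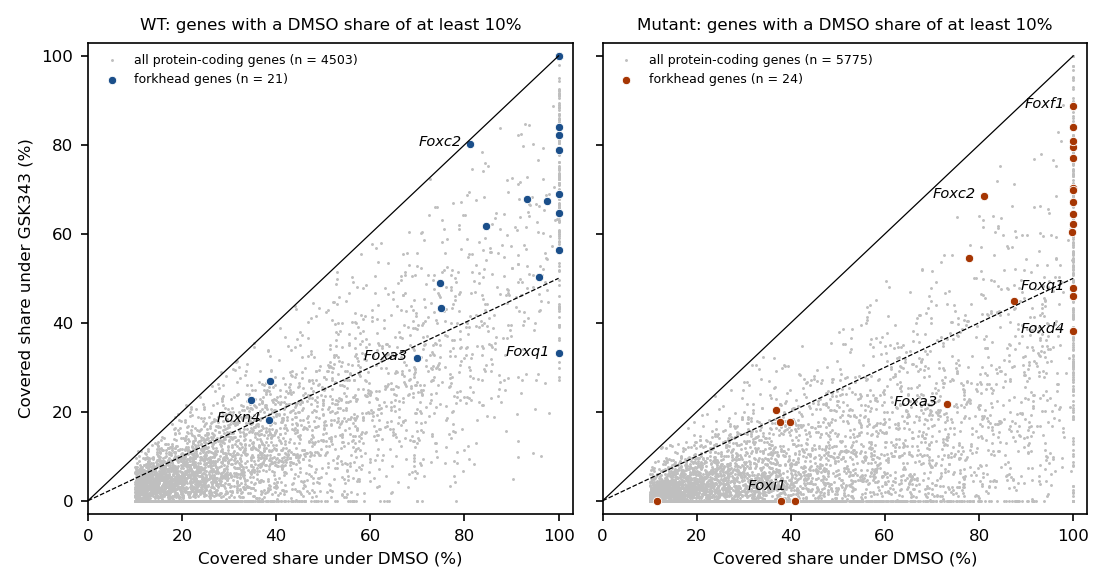
Each point is a gene with a DMSO covered share of at least 10%, with the DMSO share on the horizontal and the GSK343 share on the vertical axis, both in percent, for WT (left) and mutant lists (right). Coloured points are forkhead genes, 21 in WT and 24 in mutant cells, grey points are all protein-coding genes, the solid line marks equal shares and the dashed line a GSK343 share 2 times lower than under DMSO. On or below the dashed line lie 3 WT and 9 mutant forkhead genes. The sets differ, since Foxh1, Foxi1 and Foxn1, among the 9, reach a DMSO share of 10% in the mutant alone.

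Peaks over the members were wide, and those listed under GSK343 were shorter and more numerous. Over the members with a peak, the widest peak had a median width of 17.97 kb (DMSO) and 5.24 kb (GSK343) in WT, and of 21.2 kb and 4.69 kb in mutant cells. Over all distinct member peaks, not only the widest, the medians were 12.2 kb and 3.42 kb in WT and 12.4 kb and 2.65 kb in mutant cells. The medians of all listed peaks were 0.936 kb and 1.05 kb in WT and 1.13 kb and 0.915 kb in mutant cells. For 15 of the 28 members with a WT DMSO peak, and for 12 of 28 in mutant DMSO, the widest peak belonged to the widest 1% of its list. Under GSK343 this held for 6 of 26 members in WT and 2 of 22 in mutant cells. Foxc2 and Foxl1 shared a peak, so the WT counts rest on 14 (DMSO) and 5 (GSK343) distinct peaks. The 1% is a share of peaks, and the same count over all genes with a peak was not made. Of the 21 WT members with a DMSO share of at least 10%, 18 had a single DMSO peak, and 14 had 2 or more peaks under GSK343, up to 4. In mutant cells 17 of 24 had 2 or more, up to 7 at Foxa1. These counts were not made over all genes. The median number of GSK343 peaks was 2 for these members in both genotypes, against 1 over all such genes. Where the DMSO share was at least 90%, that median was 2 in WT and 3 in mutant members, and 3 over all such genes in both. More peaks under GSK343 than under DMSO were listed for 11 of 21 WT and 16 of 24 mutant members, and for 667 of 4503 and 901 of 5775 of all genes with such a DMSO share. With a DMSO share of at least 90% it was 9 of 13 and 14 of 14 members, and 205 of 259 and 341 of 439 of all genes, so that wide DMSO cover went with more GSK343 peaks over all genes too.

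A few members had a single wide peak in the window in WT GSK343. The WT GSK343 peak at Foxa1 was 19.6 kb wide, rank 10 by width among 11891 peaks, against 25.9 kb under DMSO. Those at Foxf1 (14.9 kb, rank 27), Foxl2 (14.8 kb, rank 29) and Foxc2 (13.0 kb, rank 49, also reaching the Foxl1 window) were among the 50 widest as well. In mutant GSK343 the widest member peak was that at Foxf1, at 9.59 kb (rank 74), and the Foxa1 window was crossed by 7 peaks of 0.543 to 4.53 kb. The authors' fold values within a list tell which member peaks were strongest. In WT DMSO the peak shared by Foxc2 and Foxl1 had the highest fold of the member peaks, 4.61, and in WT GSK343 that at Foxj1, 4.25.

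**Figure D3:**
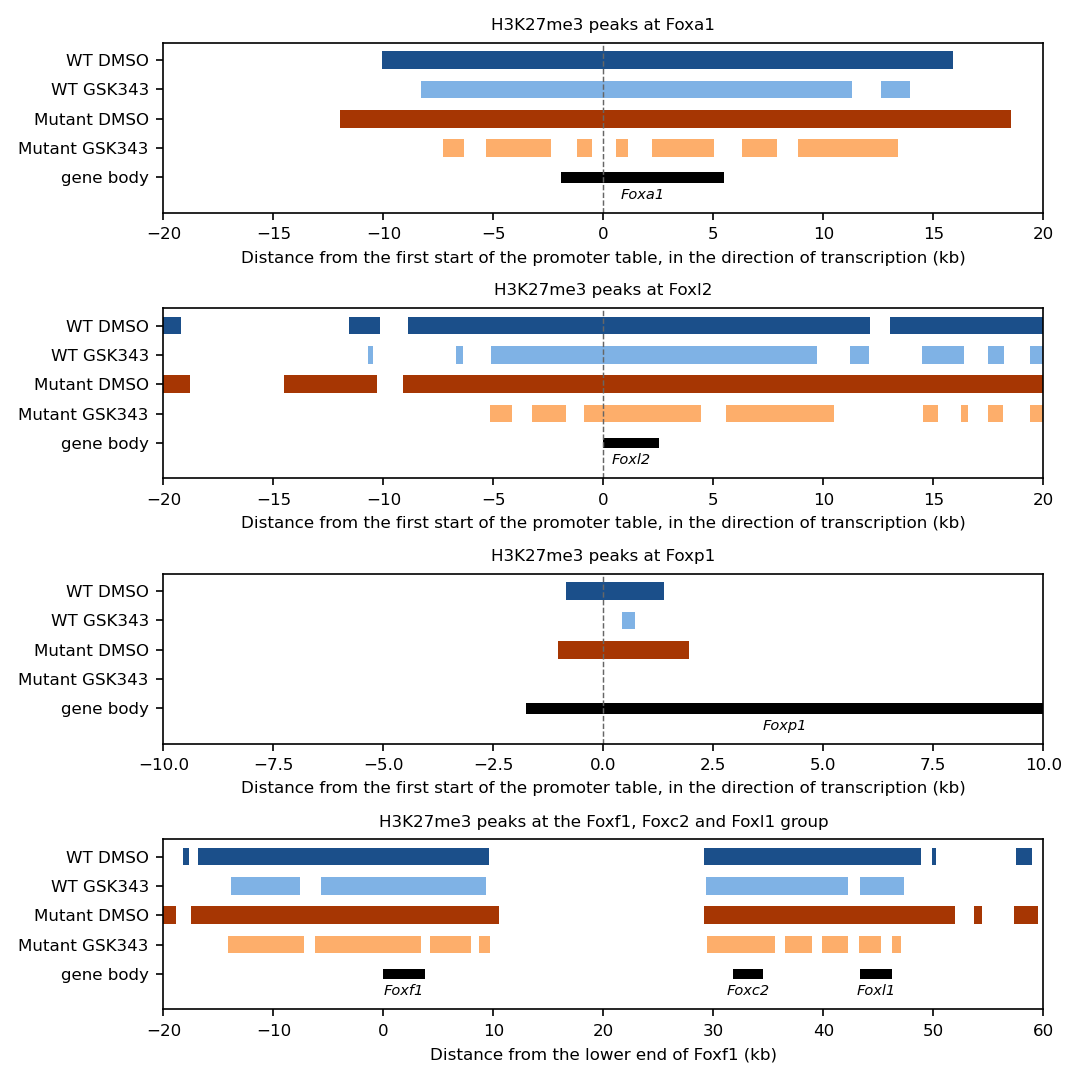
Bars show the extent of H3K27me3 peaks in each of the 4 lists, with the gene body in black, at Foxa1, Foxl2 and Foxp1 (distance in kb from the first start of the promoter table, dashed) and at the group of Foxf1, Foxc2 and Foxl1 (distance in kb from the lower-coordinate end of Foxf1). At Foxa1 a single WT GSK343 peak of 19.6 kb faces 7 mutant GSK343 peaks in the window, and at Foxp1 the start lies in a peak only under DMSO.

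Cover under GSK343 was higher near the start than at 8 to 10 kb from it. The genes were selected for DMSO cover of the body plus 5 kb each side. That window holds the start but need not hold bases 8 to 10 kb away. A higher value near the start is thus fixed in part by the selection, in the members and in all genes. Among the 14 WT members with a known start and a DMSO share of at least 10%, the mean cover within 1 kb of the start was 92.4% under DMSO and 83.1% under GSK343. At a distance of 8 to 10 kb it was 62.3% and 22.8%. In the 16 mutant members it was 83.5% under DMSO and 69.0% under GSK343 near the start, and 65.1% and 14.3% at 8 to 10 kb. Over all genes with such a DMSO share, the means near the start were 62.4% and 40.7% in WT and 60.3% and 30.3% in mutant cells. At 8 to 10 kb they were 26.5% and 7.66% in WT and 33.5% and 4.81% in mutant cells, so the decline with distance was not particular to the family. The start itself lay in a DMSO peak for 13 WT members, and 13 of these starts also lay in a GSK343 peak, against 70.7% of all genes of this kind. In mutant cells it was 12 of 13, against 58.6%, and the exception was Foxa1, whose start fell into a gap between peaks.

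**Figure D4:**
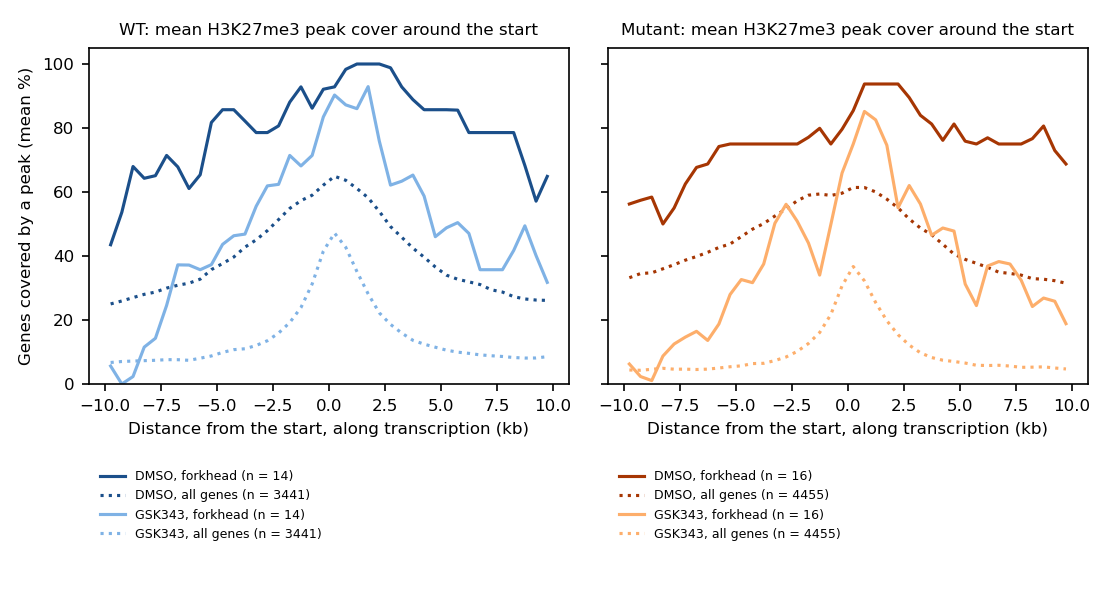
The lines give the mean percentage of genes covered by a peak in 500 bp bins up to 10 kb on each side of the first annotated start, oriented along transcription, for WT (left) and mutant lists (right). Solid lines are forkhead genes (14 in WT, 16 in mutant cells), dotted lines all protein-coding genes with a DMSO share of at least 10%, dark for DMSO and light for GSK343, with no replicate error. Under GSK343 the forkhead lines are lower far from the start, with a mean of 83.1% within 1 kb and 22.8% at 8 to 10 kb in WT. The selection for cover of the body plus 5 kb each side fixes this shape in part.

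The neighbours of the covered members were looked at next. For the 21 members with a WT DMSO share of at least 10%, the gene body alone was covered by a median of 100% in WT DMSO and 88.8% in WT GSK343. These members were selected for cover and their neighbours were not, so a higher value in the members is fixed in part by the selection. The 33 nearest protein-coding genes outside the family had medians of 0% in each list, and 19 of them had no WT DMSO peak in the body. At Foxf1 the gene on the lower side is Irf8, a factor of B cells and myeloid cells, 328 kb away and at 0% in each list. The neighbours of Foxa2, Pax1 and Sstr4, 668 kb and 348 kb away, were covered in full in WT DMSO, as Foxa2 was. Among the members with less cover, some lay below a neighbour in WT DMSO. The body of Foxs1 was at 0% and that of its neighbour Dusp15 at 100%, and the body of Foxn1 was at 10.3% and that of Slc13a2 at 46.4%.

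Family members also lie next to each other. Foxf1, Foxc2 and Foxl1 lie within 46.3 kb of chromosome 8, where 57.8% and 54.5% of the span was covered in WT and 59.5% and 45.9% in mutant cells. Foxc2 and Foxl1 shared a peak in each list, so their values are not independent. Foxq1, Foxf2 and Foxc1 lie within 252 kb of chromosome 13, and the span was covered by 27.5% and 12.3% in WT and by 43.1% and 12.0% in mutant cells. Foxd2 and Foxe3, 15.5 kb apart on chromosome 4, shared no peak.

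The genotypes were compared within each treatment by a difference of at least 10 percentage points. Under DMSO the mutant share was higher at 4 members (Foxh1, Foxi1, Foxl1 and Foxd2), by 37.9, 35.6, 15.4 and 12.6 points, and lower at none. This share of the family is near the 10.9% of all genes that were higher in the mutant, and 0.296% of all genes were lower. With an equal number of peaks from each list, and with only peaks at or above a fold of 3, Foxh1 and Foxi1 were at 0% in both DMSO lists, which ends both calls. Foxi1 was also at 0% in both with a q-value of at most 0.01. With only peaks at or above a fold of 3, Foxd2 was at 55.5% in WT DMSO and 56.5% in mutant DMSO, which ends its call. Foxf2, at 88.6% and 100%, was called instead under that setting. Members at 100% in WT cannot be higher in the mutant. Under GSK343 the mutant share was higher at 4 members, Foxd1 (by 27.6 points), Foxb1, Foxq1 and Foxe3, against 0.379% of all genes. It was lower at 7 members, by up to 37.7 points at Foxa1 and 26.3 at Foxd4, against 1.98% of all genes. The other 5 were Foxl2, Foxl1, Foxc2, Foxf1 and Foxa3. With only peaks at or above a fold of 3, Foxd1 was at 53.6% in WT GSK343 and 62.5% in mutant GSK343, which ends its call. The same values held with a q-value of at most 0.01. With an equal number of peaks from each list, Foxa3 was at 30.1% in WT GSK343 and 21.7% in mutant GSK343, which ends its call. A difference of at least 10 points needs a sizeable share in 1 of the lists, which few genes have under GSK343.

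Among the 21 members with a DMSO share of at least 10% in both genotypes, the share of DMSO-covered bases also covered under GSK343 was lower in the mutant at 16 and higher at 5. Of all 4410 such genes it was lower in the mutant at 3020 (68.5%), higher at 754 and equal at the others. No member was equal, so the 68.5% is not a like comparison for the member counts. For the 10 members at 100% under DMSO in both genotypes it was lower in the mutant at 7, and the exceptions were Foxa2, Foxd1 and Foxq1. The same count over all genes at 100% was not made, so this is not a trait of the family.

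Genes linked to Foxo1 in B cells were covered in part. Rag2, which with Rag1 recombines antigen receptor genes in precursor cells, had 50.6% and 12.3% in WT and 47.7% and 0% in mutant cells. Rag1 had 12.8% and 0% in WT and 14.0% and 0% in mutant cells. Il7r, the receptor for interleukin 7, had 6.21% and 0% in WT and 8.58% and 0% in mutant cells. Of these 3 genes, Rag2 alone had a peak under GSK343, and only in WT. The windows of Klf2, Ccr7 and Blnk had no peak in the 4 lists.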

How the data were processed

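The data were 4 lists of broad H3K27me3 peaks from 16 samples in 8 groups of 2 (ChIP and input, by genotype and by treatment). Each list was matched to a ChIP group by its peak names, which also refer to pooled duplicates. The prefix of the mutant names ends in 1, so whether these lists hold both replicates is not certain. Per the submitters' processing notes, the tools were bcl2fastq, Bowtie2 2.4.2, SAMtools 1.12, MACS2 2.2.7.1, bedtools 2.29.2 and deepTools 3.5.1, on mm10. Settings are not given in the sources used here. The fold of a peak is a linear ratio over background as deposited by the authors, and the −log10 p-value and q-value and the score are also the authors' deposited values. Ranks and filters on them were applied list by list. Positions are counted from 1 on GRCm38.

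Genes and promoters came from RefSeq tables of GRCm38.p6. Peaks sharing at least 1 bp with a window were counted. A gene was called lower under GSK343 where its share was at least 2 times lower than under DMSO, among genes with a DMSO share of at least 10%, and differing between genotypes at 10 points. Where a gene has several starts, the first along transcription was used. No tests were run, since each group has 1 list. The members were taken by gene name, but the family and the gene lists were chosen with earlier results of these data known. Some genes of the B cell lists are not reported here. The named genes were all members, with full values for Foxo1, Foxo3, Foxp1, Foxm1, the highest and lowest shares, the largest differences, shared peaks and calls that differ between lists. The alternatives were other flanks, a q-value of at most 0.01, a fold of at least 3, equal list lengths, peaks of at least 1 kb and other call thresholds. Python 3.11.15, numpy 2.4.6, pandas 2.3.3 and matplotlib 3.10.9 were used. The overlap code gave the same result as bedtools 2.31.1 for 21631 of 21631 windows in each list, and the set answer in 200 of 200 simulated windows.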

Additional observations from a re-analysis of the deposited data

Results flagged for a closer look

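Foxh1 had a larger share under GSK343 than under DMSO in WT cells, by 2.12 points, and a smaller one in mutant cells, by 37.9 points (from 37.9% to 0%), so that the 2 effects lay 40.0 points apart. At Foxl1 the mutant share was 15.4 points above WT under DMSO and 15.7 points below it under GSK343 (a difference of -15.7), 31.1 points apart. Neither difference between effects was tested, since each group has 1 list. The mutant DMSO list covers 134 Mb against 84.2 Mb in WT. With an equal number of peaks from each list, Foxh1 was at 0% in mutant DMSO, so its difference was no longer seen. Foxl1 then had 81.6% in WT and 100% in mutant cells under DMSO, and 61.7% and 46.0% under GSK343, so its differences remained.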

How the results depend on the processing

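The 13 alternative settings, of which 12 were planned and 1 (a DMSO share of at least 90%) was chosen after seeing the data, gave 134 values for 16 results. Within 1.5 times the original value were 107, and 27 moved further. The counts of members with a peak were among the former under each setting. With only peaks at or above a fold of 3, and with an equal number of peaks (10819) from each list, the number of WT members at least 2 times lower under GSK343 was 3 of 21, as before, while the share of all genes was 61.3% and 62.4%. In mutant cells these settings gave 9 and 6 of 21, and 84.7% and 85.0% of all genes.

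The median covered share depends on the flank, by its construction. With DMSO first, it was 81.7% and 43.7% in WT and 81.5% and 54.5% in mutant cells with no flank, and 65.2% and 41.4%, and 67.3% and 30.8%, with 2 kb, and with 10 kb it was 16.1% in WT GSK343 and 13.2% in mutant GSK343. The median share of DMSO-covered bases also covered under GSK343 also fell as the flank grew. In WT members it was 97.3% with no flank, 79.0% with 2 kb and 61.3% with 10 kb. In mutant members it was 87.9%, 66.8% and 50.7%. Members at least 2 times lower under GSK343 numbered 5 in the mutant with no flank and 5 with 2 kb. With 10 kb it was 6 in WT and 12 in the mutant. Members called lower in this way numbered 10 in WT with any DMSO share, and 1 in WT and 3 in the mutant with a DMSO share of at least 90%. They numbered 1 and 4 where at least 3 times lower was required. Members higher in the mutant under DMSO numbered 2 with no flank, with 2 kb, at a fold of at least 3 and at 20 points, and 7 with 10 kb, and 1 was lower with no flank. Under GSK343, 2 were higher with 10 kb, and at 20 points 1 was higher and 3 were lower. The cause was not tested where the setting does not fix it.

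No paired analysis was possible because the peaks of a group come as 1 list. For this reason fits without each replicate were not run either. Depth is unknown, so absence from a list is not absence of the mark.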
